A study of Mus musculus with 37 samples.

Results

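Transcript levels of 9 tight junction genes were examined in mouse intestinal organoids, the claudins Cldn2, Cldn3, Cldn4, Cldn7, Cldn15 and Cldn23, the plaque scaffold Tjp1 (ZO-1), occludin (Ocln) and the junctional adhesion molecule F11r (JAM-A). They were chosen by symbol and are 9 of 31533 genes listed in at least 1 of the count tables of the 3 experiments, and all 9 had a row in each table. The experiments asked how vasoactive intestinal peptide (VIP), a neuropeptide that signals through the receptor VPAC1, and X-ray irradiation act on jejunal epithelium grown without other cell types.

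Tight junctions seal the space between neighbouring epithelial cells. Claudins form the paracellular strands, and the set of claudins a cell makes sets which ions and how much water pass: Cldn2 and Cldn15 are known as pore-forming claudins for cations, Cldn3 and Cldn4 as sealing claudins. Occludin and JAM-A are further membrane proteins of the junction, and ZO-1 ties the strands to the actin cytoskeleton. In the small intestine Cldn2 is known as a crypt claudin and Cldn15 supplies the luminal sodium that nutrient uptake uses.

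Organoids had been grown from jejunal crypts of adult mice aged between 6 and 12 weeks, 1 organoid line per mouse, so that each replicate is a culture of 1 mouse. In the first experiment whole organoids of C57Bl6/J mice received 100 nM VIP for 72 h (4 cultures, 8 libraries) or none (3 cultures, 5 libraries), and 3 mice gave both. In the second, Lgr5-EGFP+ cells were sorted from organoids of Lgr5-EGFP-IRES-CreERT2 mice, in which the Lgr5 locus drives the reporter, after 72 h with or without VIP (4 cultures each). In the third, Lgr5-EGFP+ cells were sorted from such organoids after 6 Gy of X-rays or sham treatment, each with or without 100 nM VIP for 48 h (4 cultures in each of the 4 groups, all from the same 4 mice). Levels are given as unique molecular identifiers (UMIs, 1 per captured 3′ end) per 1000000 UMIs of the culture (CPM), scaled by TMM factors, and a gene was called changed at an adjusted p of 0.05 or less in edgeR's quasi-likelihood test over all genes tested, with the mouse as a block.

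Cultures held between 3722716 and 6330404 UMIs in whole organoids, between 575242 and 1104126 in the 72 h sort and between 1075715 and 1876729 in the irradiation experiment, so that lowly expressed members were measured least precisely in the 72 h sort. Epcam, the pan-epithelial marker, lay between 756 and 1425 CPM in every culture, and the summed fibroblast markers reached at most 2.57 CPM. Lgr5 itself was between 12.4 and 53.8 CPM in the sorted cells and between 45.0 and 115 CPM in whole organoids, so the sorted cells did not hold more Lgr5 message, although the tables were normalised separately. The stem cell list includes Lgr5, and Olfm4 held the most UMIs of it in each experiment. It summed to 2500 to 4704 CPM in untreated whole organoids, 4374 to 5953 CPM in 72 h controls and 3426 to 4512 CPM in sham controls. The 72 h range overlapped that of whole organoids, and the sham range lay within it. Enterocyte markers summed to 16620 to 17620, 1200 to 2888 and 1853 to 2346 CPM in the same groups. Markers of Paneth cells summed to between 3960 and 29230 CPM in sorted cells, so the sorted material carried abundant transcripts of other lineages. In these bulk samples fewer cells of a type and less RNA per cell cannot be told apart.

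The libraries of mouse 3 stood apart in whole organoids, and one of them went against its label. In this experiment mouse 3 with VIP was sequenced as a pair of technical replicates, and the second of them differed from the first by a chi-square of 21.7 per gene, against 1.15 to 3.17 in the 5 other pairs of technical replicates. Its distance was 2.52 to 3.43 per gene to the 4 libraries of control mice 1 and 2, 14.1 to that of control mouse 3, and 4.43 to 9.60 to the libraries of the other VIP-treated mice. The first library lay farther from the other VIP-treated mice than the second did, at 13.2 to 24.5. It lay at 19.9 to 28.2 from control mice 1 and 2, and its nearest library was that of control mouse 3, at 11.3. The only library of control mouse 3 differed from the cultures of control mice 1 and 2 by 19.7 and 25.9 per gene, where those 2 differed from each other by 4.37. The goblet cell gene Clca1 stood at 52.3 CPM in the second library of VIP-treated mouse 3, within the 40.2 to 60.9 CPM of the control libraries, and at 325 CPM in the first library. Tests on whole organoids are therefore given with and without the second library, and the values of mouse 3 with VIP are sums over both libraries unless stated.

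The genes that passed the test in at least 1 sorted-cell comparison were Cldn2, Cldn4, Cldn15 and F11r, and their promoter windows are shown because these members moved with VIP or with irradiation. RefSeq windows (GRCm38.p6) run from 250 bases before to 50 after the start site, and 8 of the 9 members had at least 1. Capitals mark TGANTCA, the AP-1 motif, and TATAAA, the TATA box, each searched on both strands. The sequences run 5′ to 3′ on the gene's strand. In GENCODE M21 on GRCm38, Cldn2 lies at chrX:139800828-139811386 (plus strand), Cldn15 at chr5:136966616-136975858 (plus strand) and F11r at chr1:171437535-171464603 (plus strand).
Cldn2, chrX:139800558-139800857, plus strand: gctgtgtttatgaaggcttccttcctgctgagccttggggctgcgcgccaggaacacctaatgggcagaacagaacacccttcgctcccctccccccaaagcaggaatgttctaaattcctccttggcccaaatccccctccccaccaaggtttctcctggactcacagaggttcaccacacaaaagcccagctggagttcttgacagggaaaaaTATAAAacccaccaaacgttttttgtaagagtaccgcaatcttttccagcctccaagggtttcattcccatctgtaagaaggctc
Cldn4, chr5:134946885-134947184, minus strand: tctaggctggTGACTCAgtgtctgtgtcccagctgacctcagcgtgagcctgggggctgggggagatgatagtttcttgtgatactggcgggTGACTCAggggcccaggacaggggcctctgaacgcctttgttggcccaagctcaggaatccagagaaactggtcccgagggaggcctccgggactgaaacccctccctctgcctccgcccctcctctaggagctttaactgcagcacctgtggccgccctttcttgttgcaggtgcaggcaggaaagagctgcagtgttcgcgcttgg
Cldn15, chr5:136967619-136967918, plus strand: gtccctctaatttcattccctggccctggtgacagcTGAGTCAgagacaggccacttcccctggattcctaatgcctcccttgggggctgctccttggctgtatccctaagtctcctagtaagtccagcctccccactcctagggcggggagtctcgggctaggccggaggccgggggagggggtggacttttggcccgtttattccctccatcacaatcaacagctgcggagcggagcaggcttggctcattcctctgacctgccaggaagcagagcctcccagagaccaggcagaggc
F11r, chr1:171437311-171437610, plus strand: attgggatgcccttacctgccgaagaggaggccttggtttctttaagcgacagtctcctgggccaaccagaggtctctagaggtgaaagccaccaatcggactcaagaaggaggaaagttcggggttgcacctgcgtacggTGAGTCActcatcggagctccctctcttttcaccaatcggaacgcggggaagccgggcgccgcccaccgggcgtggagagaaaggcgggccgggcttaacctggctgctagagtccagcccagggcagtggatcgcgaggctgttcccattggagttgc

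The Cldn2 window held 1 TATAAA, starting 35 bases before the start site, and TATAAA was present in 13.6% of all 32851 windows of this length. Cldn4 held 2 TGANTCA matches, and Cldn15 and F11r held 1 each, against 7.81% of all windows. The windows of Cldn2, Cldn3, Cldn7, Tjp1 and Ocln held no TGANTCA match. Cldn4 and F11r rose and Cldn15 fell after irradiation (values below), and the part of the motif in these changes was not tested. The cAMP response element TGACGTCA, a different set of letters from TGANTCA, was present in 1.79% of all windows and, among the members, in 1 of the 2 windows of Cldn7. A match is a description of letters and not a binding site.

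Claudin transcripts came almost wholly from the listed members. Of the claudin genes in the tables, 7 of 21 passed the filter on low counts in whole organoids, 5 of 11 in the 72 h sort and 7 of 20 in the irradiation experiment. The listed claudins held 99% of all claudin UMIs in whole organoids and in the 72 h sort and 99.3% in the irradiation experiment. By UMI level the order in untreated whole organoids was Cldn7, Cldn3, Cldn15, Cldn2, Cldn4 and Cldn23.

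Cldn7, a claudin of lateral and junctional membranes, was the most abundant in every group and ranged from 811 to 1205 CPM over all cultures. Its share of claudin UMIs lay between 44% and 55.6%. Cldn3 followed at 419 to 723 CPM. The untreated whole organoids did not overlap between Cldn7, Cldn3, Cldn15 and Cldn2, whose ranges were 949 to 1079, 604 to 650, 245 to 283 and 112 to 172 CPM. Cldn2, F11r (109 to 151 CPM) and Ocln (101 to 140 CPM) were neighbours whose ranges overlapped, as were Cldn4 (53.3 to 81.3 CPM) and Tjp1 (29.6 to 58.9 CPM). Cldn23 was the lowest there, at 14.5 to 29.6 CPM, and its highest culture stood level with the lowest of Tjp1.

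Sorted cells of the sham group without VIP had the same leading pair, with Cldn7 at 1000.0 to 1125 CPM and Cldn3 at 492 to 524 CPM. Behind them F11r (130.2 to 143 CPM) overlapped Cldn15 (138 to 188 CPM), and Cldn2 (83.6 to 101 CPM) overlapped Cldn4 (87.9 to 103 CPM). Ocln (31.1 to 44.8 CPM), Tjp1 (9.62 to 24.1 CPM) and Cldn23 (11.9 to 14.5 CPM) were the lowest. These 3 were counted with between 17 and 68 UMIs per culture, which limits their precision.

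**Figure D1:**
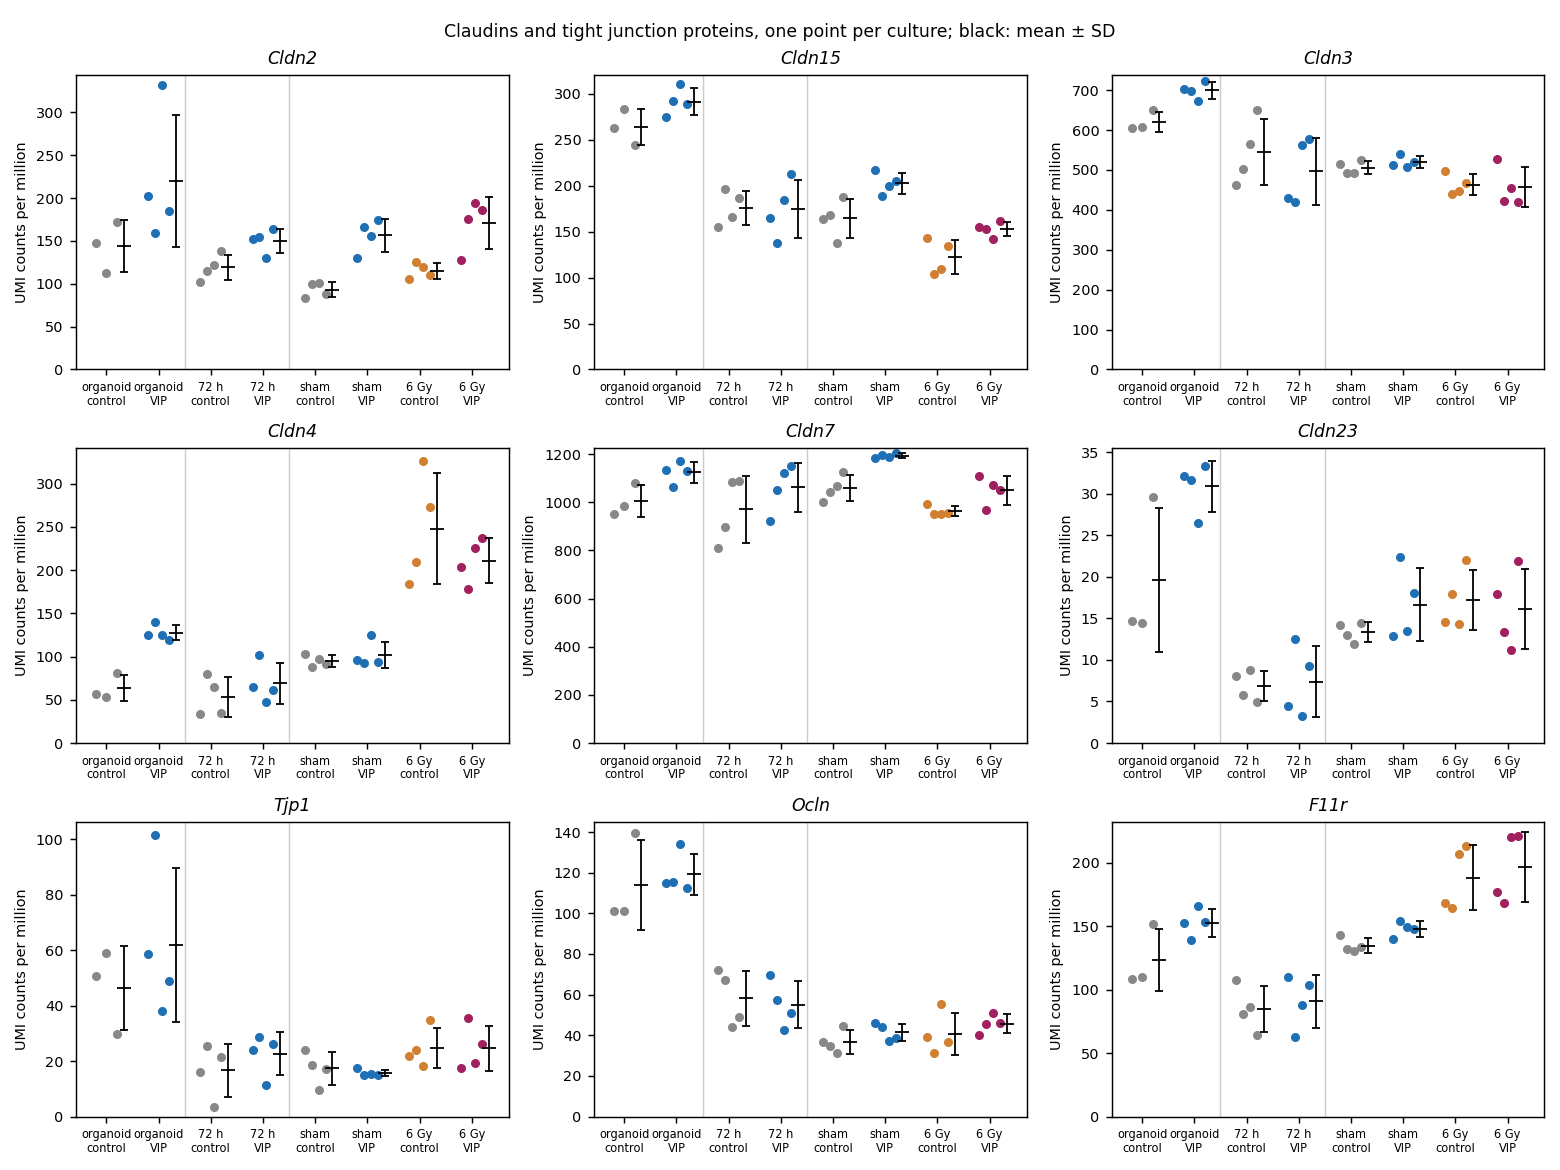
CPM (vertical axes, linear from 0) of the 9 genes in every culture, by group: whole organoids, Lgr5-EGFP+ cells after 72 h, and Lgr5-EGFP+ cells of the irradiation experiment with sham or 6 Gy. Each point is a culture, black marks are mean ± SD (3 or 4 cultures), and grey lines separate experiments; Cldn2 is higher with VIP in the sham and irradiated groups, and Cldn4 and F11r are higher after 6 Gy.

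In whole organoids VIP was accompanied by higher Cldn4, Cldn2 and Tjp1. These were 3 of 9 members called higher and 0 lower, where 4.82% of 12727 genes tested were called. All 9 fitted log2 fold changes were positive, with a median of 0.32 against -0.0041 over all genes tested. Without the library that went against its label, F11r and Cldn23 were called as well (values below). The share of all genes called in that fit is not given here, so the added calls cannot be read as particular to the members.

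Cldn4, a sealing claudin, was 56.8, 53.3 and 81.3 CPM in controls and 125, 140.0, 125 and 119 CPM with VIP. Every VIP-treated culture lay above every control. The fold change was 2.07 (log2 1.05 ± 0.13 SE, adjusted p = 2.7e-04, higher in 3 of 3 mice), and log2 1.19 without the library against its label (adjusted p = 7.9e-06).

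Cldn2, the crypt pore-forming claudin, was 148, 112 and 172 CPM in controls and 202, 159, 332 and 185 CPM with VIP. The groups overlapped, since VIP-treated mouse 2 lay below control mouse 3, but each of the 3 mice was higher with VIP than without. The fold change was 1.55 (log2 0.63 ± 0.11 SE, adjusted p = 0.0030). It was log2 0.80 without that library (adjusted p = 0.0065).

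The high value of mouse 3 came from a single library, with 453 CPM of library UMIs in the first and 127 in the second. With the first library left out instead, the log2 fold changes were 0.17 for Cldn2 (adjusted p = 0.95) and 0.77 for Cldn4 (adjusted p = 0.82), and no member was called. Ildr1 and Ezr, junction genes outside the members, lost their calls there too (log2 1.70 and 0.47, adjusted p = 0.47 and 0.60). The share of all genes called in that fit is not given here, so the lack of calls cannot be read as particular to the members. Without mouse 3 altogether, Cldn2 was called at a log2 fold change of 0.48 (adjusted p = 1.8e-05) and Cldn4 at 1.26 (adjusted p = 5.8e-31), in 2 pairs of cultures.

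Tjp1, the ZO-1 scaffold, was 50.7, 58.9 and 29.6 CPM in controls and 58.7, 101, 38.2 and 49.0 CPM with VIP. The groups overlapped, and each of 3 mice was higher with VIP. Its fitted rise was 0.47 ± 0.12 SE on the log2 scale (adjusted p = 0.047), a call that was lost under 8 of 14 alternatives, among them DESeq2 (adjusted p = 0.38) and the fit without mouse 2 (adjusted p = 0.60). Without the library against its label it was 0.46 (adjusted p = 0.024). Without the mouse block only Cldn4 was called (adjusted p = 0.025).

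F11r was 109, 110.0 and 151 CPM in controls and 152, 139, 166 and 153 CPM with VIP (log2 0.32 ± 0.098 SE, adjusted p = 0.096). Cldn23, a claudin of differentiated epithelium, was 14.7, 14.5 and 29.6 CPM in controls and 32.1, 31.6, 26.4 and 33.4 CPM with VIP (log2 0.69 ± 0.21 SE, adjusted p = 0.098), and its mouse 3 went the other way from mice 1 and 2. Without that library both were called, F11r at a log2 fold change of 0.41 (adjusted p = 0.0037) and Cldn23 at 0.82 (adjusted p = 0.0097). Without mouse 3 altogether they were called at 0.41 (F11r, adjusted p = 4.3e-04) and 1.13 (Cldn23, adjusted p = 1.4e-10), and Tjp1 at 0.52 (adjusted p = 3.9e-05).

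The abundant claudins and occludin moved least. Cldn3 had a log2 fold change of 0.16 (95% interval -0.026 to 0.34, adjusted p = 0.40), Cldn7 of 0.16 (-0.017 to 0.34, adjusted p = 0.37), Cldn15 of 0.15 (-0.052 to 0.35, adjusted p = 0.49) and Ocln of 0.11 (-0.10 to 0.32, adjusted p = 0.66). Without the library against its label these were 0.18, 0.20, 0.18 and 0.18, with adjusted p between 0.084 and 0.24. Cldn4 made up 2.57% to 3.56% of claudin UMIs in controls and 4.71% to 5.8% with VIP.

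Some marker lists moved in the same cultures. All 7 tested genes of a list of regenerative epithelium were called higher with VIP, with summed levels of 97.2 to 136 CPM in controls and 339 to 686 CPM with VIP. Of 8 goblet cell markers 6 were called higher, with sums of 5330 to 7203 CPM and 7684 to 9373 CPM. Of 10 enterocyte markers 3 were called higher and 2 lower, and of 6 enteroendocrine markers 1 was called higher. None of 10 stem cell, 7 Paneth cell or 5 tuft cell markers was called. The part of these lists in the junction results was not tested. Fibroblast markers summed to at most 0.175 CPM in whole organoids, with Col1a1 and Pdgfra at 0.

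**Figure D2:**
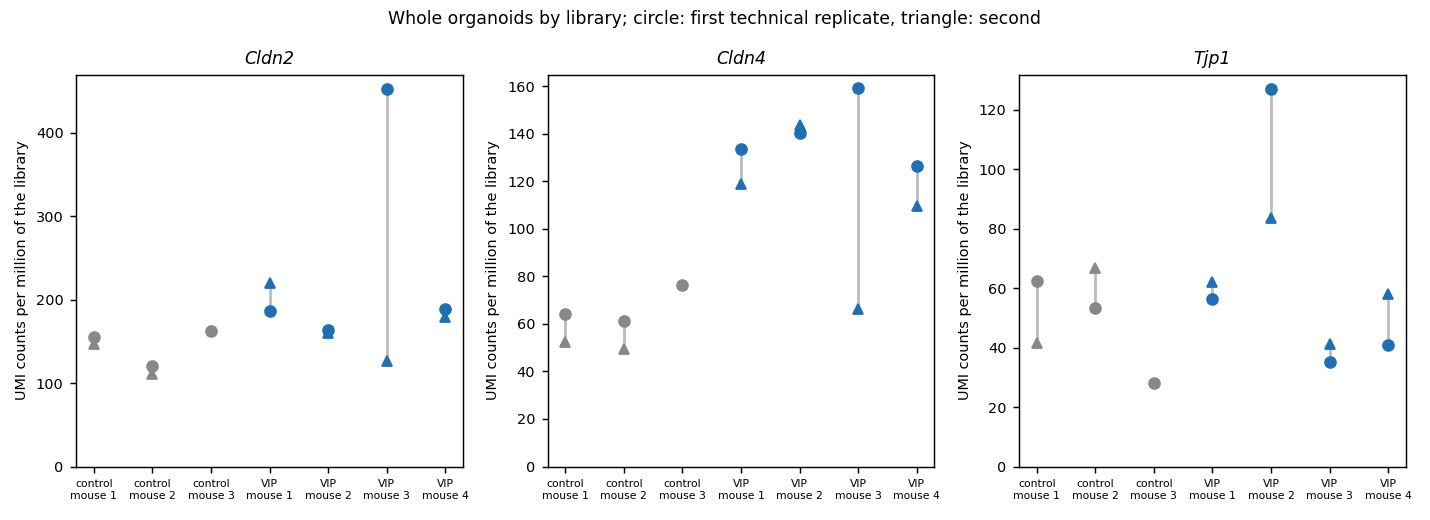
UMIs per 1000000 of the library (vertical axes, from 0) of Cldn2, Cldn4 and Tjp1 in each library of whole organoids, with circles for the first and triangles for the second technical replicate and a line joining libraries of a culture. The second library of VIP-treated mouse 3 lies at 127 for Cldn2 and 66.2 for Cldn4, where the first lies at 453 and 159, and control mouse 3 has a single library.

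In Lgr5-EGFP+ cells sorted after 72 h with VIP no member was called. The count was 0 of 8 tested, where 0.0885% of 6778 genes were called by edgeR, and DESeq2 called no member either. Of the 8, Cldn2 alone had an unadjusted p under 0.05. Cldn23 was not tested, with 2 to 7 UMIs per culture.

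Cldn2 was 103, 115, 122 and 138 CPM in controls and 153, 154, 130.5 and 164 CPM with VIP. It was higher in 4 of 4 mice, and the groups overlapped at 1 culture of each. The log2 fold change was 0.34 (95% interval 0.029 to 0.66, unadjusted p = 0.034, adjusted p = 0.88).

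Cldn4 was 33.6, 80.0, 65.2 and 34.4 CPM in controls and 64.2, 102, 47.3 and 61.7 CPM with VIP, which was higher in 3 of 4 mice, on 21 to 72 UMIs per culture. Its log2 fold change of 0.41 had an interval from -0.045 to 0.86 (adjusted p = 0.88). The whole-organoid value of 1.05 lay above this interval, and the value of 0.77 without the first library of VIP-treated mouse 3 lay within it. Cldn3 was lower with VIP in 4 of 4 mice (log2 -0.13, -0.40 to 0.13, adjusted p = 0.95). The other members had log2 fold changes from -0.075 (Ocln) to 0.47 (Tjp1, -0.21 to 1.14).

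The difference in the VIP response between the sorted cells and whole organoids was tested in a joint fit. No member passed, where 0.147% of 10186 genes were called. Cldn4 had the smallest p of the members, with a log2 difference of -0.64 (-1.21 to -0.072, unadjusted p = 0.029, adjusted p = 0.74), meaning a smaller fitted response in sorted cells, and of -0.78 (adjusted p = 0.28) without the library against its label. Cldn3 was higher in 3 of 3 mice in whole organoids and lower in 4 of 4 in sorted cells, and that difference did not pass (log2 -0.29, -0.62 to 0.041, adjusted p = 0.85). The mice and the sort differ together between these experiments and cannot be told apart.

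After 48 h of VIP without irradiation, Cldn2 was called higher in Lgr5-EGFP+ cells and no other member was. This was 1 of 9, where 0.742% of 9976 genes were called. The 4 sham cultures without VIP held 83.6, 99.7, 101 and 87.5 CPM of Cldn2, and the 4 with VIP held 129.9, 166, 156 and 175 CPM. The groups did not overlap, and each mouse was higher with VIP. The fold change was 1.68 (log2 0.75 ± 0.092 SE, 95% interval 0.56 to 0.94, adjusted p = 5.6e-05), and it was called under all 12 alternatives with log2 fold changes between 0.67 and 0.79.

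Cldn15, the other pore-forming claudin, was 164, 168, 138 and 188 CPM without VIP and 217, 189, 200.2 and 205 CPM with it. These groups did not overlap either, by less than 1 CPM. The fitted difference was 0.31 ± 0.083 SE on the log2 scale (adjusted p = 0.081). It was called in 1 of 12 alternatives, the fit of these 8 cultures alone (adjusted p = 0.048).

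Cldn7 also did not overlap between the groups, at 1000.0 to 1125 CPM without and 1183 to 1205 CPM with VIP (log2 0.17 ± 0.061 SE, adjusted p = 0.20). Cldn3 and Cldn4 had log2 fold changes of 0.042 (-0.096 to 0.18) and 0.092 (-0.15 to 0.34). Both intervals held 0, and that of Cldn4 also held the fitted Cldn15 difference. F11r, Ocln, Cldn23 and Tjp1 lay between -0.13 and 0.30 on the log2 scale, and their intervals all held 0.

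Under irradiation the response to VIP was again called for Cldn2 alone, 1 of 9 members where 0.221% of 9976 genes were called. Irradiated cultures without VIP held 105, 125, 119 and 110.3 CPM, and those with VIP held 128, 175, 195 and 186 CPM. The groups did not overlap, although irradiated mouse 1 with VIP lay just above the highest culture without. The fold change was 1.47 (log2 0.55 ± 0.089 SE, 95% interval 0.37 to 0.74, adjusted p = 0.0032). Without mouse 3 the adjusted p was 0.097 and without mouse 4 it was 0.070.

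Cldn15 was 143, 104, 109.7 and 134 CPM in irradiated cells without VIP and 155, 153, 142 and 161 CPM with VIP. It was higher with VIP in 4 of 4 mice, and its difference of 0.32 ± 0.089 SE (log2) did not pass (adjusted p = 0.21). Cldn4 was lower with VIP in 3 of 4 mice, with a log2 fold change of -0.20 (-0.41 to 0.00062, adjusted p = 0.87). The remaining 6 members lay between -0.063 (Cldn23) and 0.19 (Ocln).

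Whether VIP acted differently after irradiation was tested as an interaction. No member passed, and edgeR called 0% of the 9976 genes (0 genes, with 634 at an unadjusted p under 0.05). For Cldn2 the log2 interaction was -0.20 (-0.46 to 0.069, adjusted p = 0.89), and for Cldn4 it was -0.30 (-0.62 to 0.022, adjusted p = 0.82). Cldn15 had the interaction nearest to 0 of all members, 0.017 (-0.23 to 0.27), and its sign turned without mouse 2 or mouse 4.

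**Figure D3:**
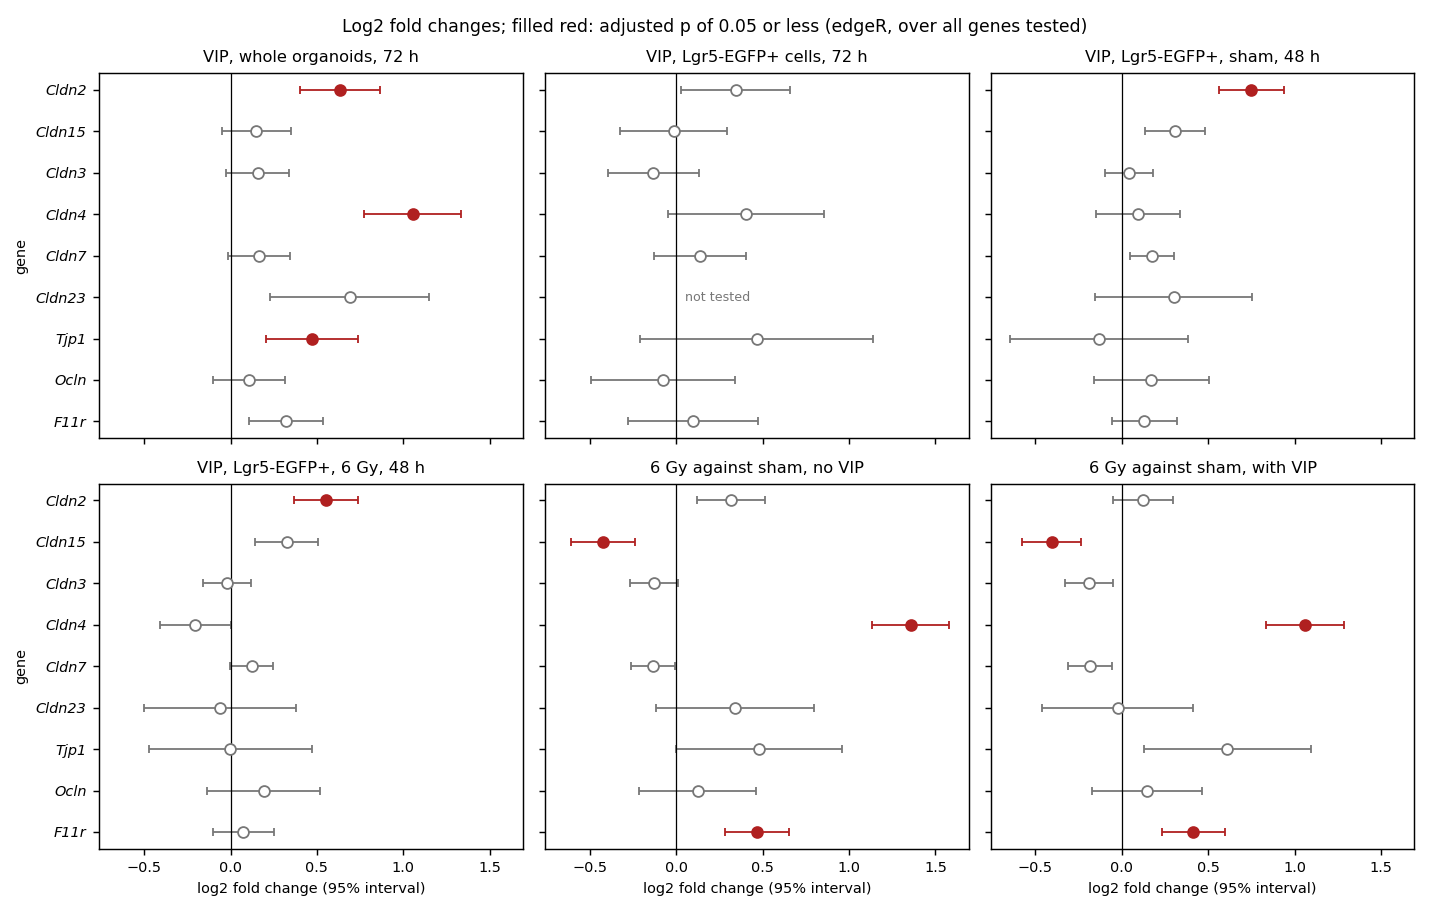
Log2 fold changes (horizontal axes) with 95% intervals of the 9 genes in the 6 comparisons, 4 of VIP against no VIP and 2 of 6 Gy against sham. Filled red points passed an adjusted p of 0.05 over all genes tested, which Cldn2 did in 3 of 4 VIP comparisons and Cldn4, F11r and Cldn15 did in both irradiation comparisons.

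Irradiation was accompanied by higher Cldn4 and F11r and lower Cldn15 in Lgr5-EGFP+ cells, whether VIP was present or not. Without VIP, Cldn4 and F11r were called higher and Cldn15 lower, 3 of 9 members where 4.46% of 9976 genes were called. With VIP the calls were again Cldn4 and F11r higher and Cldn15 lower, where 7.78% of 9976 genes were called. The 2 comparisons share no culture, but they come from the same 4 mice, and each shares its groups with the VIP comparisons above.

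Cldn4 was 103, 87.9, 97.4 and 91.5 CPM in sham cells without VIP and 184, 209, 326 and 273 CPM after 6 Gy. The lowest irradiated culture lay well above the highest sham culture. The fold change was 2.56 (log2 1.36 ± 0.11 SE, 95% interval 1.13 to 1.58, adjusted p = 3.5e-08).

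With VIP present Cldn4 went from 95.9, 93.0, 124 and 93.7 CPM to 203, 178, 226 and 237 CPM. The groups again did not overlap. The fold change was 2.08 (log2 1.06 ± 0.11 SE, 0.84 to 1.28, adjusted p = 2.9e-07), and Cldn4 was called under all 12 alternatives in each irradiation comparison.

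F11r, the adhesion molecule JAM-A, was 143, 132, 130.2 and 134 CPM in sham cells and 168, 164, 207 and 213 CPM after 6 Gy without VIP. The corresponding cultures with VIP held 139.7, 154, 149.5 and 148 CPM and then 177, 168, 220.1 and 221 CPM. In both comparisons every irradiated culture was above every sham culture. The log2 fold changes were 0.47 ± 0.090 SE (adjusted p = 0.0019) without VIP and 0.41 ± 0.088 SE (adjusted p = 0.0035) with it. Without mouse 4 these adjusted p-values were 0.056 and 0.063.

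Cldn15 went down, from 164, 168, 138 and 188 CPM to 143, 104, 109.7 and 134 CPM without VIP. It was lower in 4 of 4 mice, and the groups overlapped through the low sham culture of mouse 3. On the log2 scale the difference was -0.42 ± 0.089 SE (0.745-fold, adjusted p = 0.0042), and the call was lost without mouse 2 (adjusted p = 0.092) and without mouse 4 (adjusted p = 0.062). With VIP present, Cldn15 fell from 189 to 217 CPM in sham cells to 142 to 161 CPM after 6 Gy with no overlap (log2 -0.41 ± 0.084 SE, adjusted p = 0.0026), under all 12 alternatives.

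Cldn2 after irradiation without VIP differed by log2 0.32 ± 0.095 SE (adjusted p = 0.058) with no overlap of the groups, and 0.12 (-0.054 to 0.30, adjusted p = 0.45) with VIP. The abundant Cldn3 and Cldn7 had log2 fold changes between -0.19 and -0.13 in the 2 comparisons, and none of these passed (adjusted p between 0.061 and 0.35). Without mouse 1, however, Cldn3, Cldn7 and Cldn15 were called lower and Cldn4, F11r and Tjp1 higher with VIP present. The share of all genes called without mouse 1 is not given here, so these calls cannot be read as particular to the members. Ocln had log2 fold changes of 0.12 and 0.15 with intervals from -0.21 to 0.47.

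Tjp1 was 24.1, 18.6, 9.62 and 17.1 CPM in sham cells and 21.6, 23.9, 18.1 and 34.9 CPM after 6 Gy without VIP, on 17 to 44 UMIs per culture. The log2 fold changes of 0.48 (-0.0025 to 0.96, adjusted p = 0.30) and, with VIP, 0.61 (0.13 to 1.10, adjusted p = 0.12) did not pass.

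Because Cldn3 and Cldn4 are intronless neighbours, their counts were also set against each other within each culture, where library scaling does not enter. In GRCm38 Cldn4 lies at chr5:134945119-134946934 on the minus strand and Cldn3 at chr5:134986214-134987472 on the plus strand, 39279 bases apart with 0 protein-coding genes between them. The antisense gene Wbscr25 overlaps Cldn3. The Cldn4 to Cldn3 ratio was 0.174 to 0.2 in sham cells without VIP and 0.369 to 0.731 after 6 Gy.

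With VIP the same ratio was 0.172 to 0.245 in sham cells and 0.385 to 0.564 after 6 Gy. In whole organoids it was 0.0876 to 0.125 in controls and 0.165 to 0.2 with VIP. The first library of VIP-treated mouse 3 gave 0.235 and the second 0.104. In neither experiment did these groups overlap, and the ratios thus rose in 4 of 4 mice with irradiation and in 3 of 3 mice with VIP. In the 72 h sort the ratio was 0.0529 to 0.159 without and 0.0841 to 0.244 with VIP, which overlapped.

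**Figure D4:**
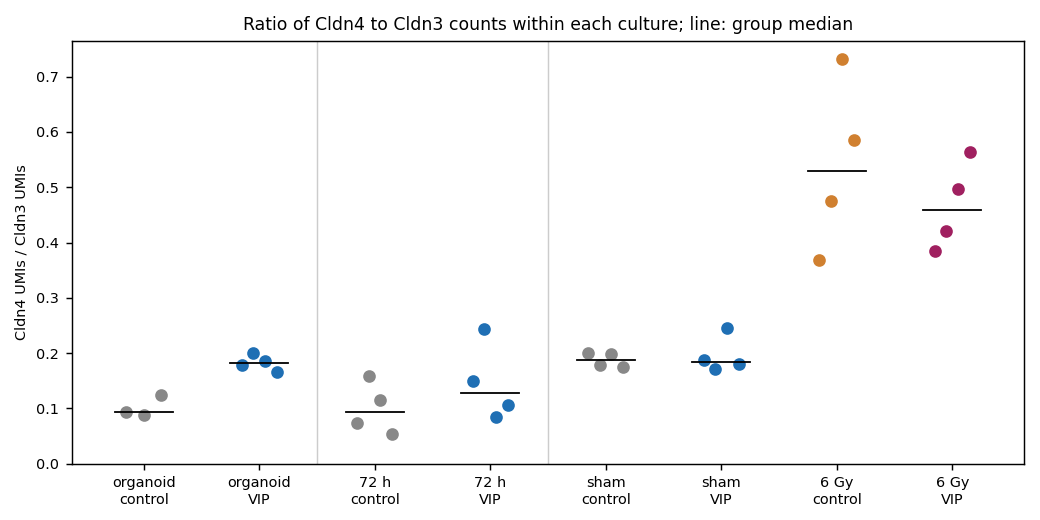
Ratio of Cldn4 to Cldn3 UMI counts (vertical axis, from 0) in every culture by group, with the group median as a line. The 6 Gy groups lie between 0.369 and 0.731, above all sham cultures, which lie between 0.172 and 0.245.

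Read as shares of claudin UMIs, Cldn4 had a median of 4.84% in sham cells and 12.5% after 6 Gy without VIP, and 4.32% and 10.1% with VIP. Cldn15 had medians of 8.72% and 6.18% without VIP and 9.14% and 7.46% with VIP. Cldn2 had medians of 4.81% in sham cells without VIP, 7.28% with VIP, 5.8% after 6 Gy and 9.01% after 6 Gy with VIP.

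Lineage markers moved with irradiation in the same cultures. All 7 Paneth cell markers were called higher in both comparisons, with sums of 10440 to 15330 CPM in sham and 15220 to 29230 CPM in irradiated cells without VIP, and of 8894 to 10150 and 15240 to 17600 CPM with VIP. Of 6 enteroendocrine markers 4 were called higher without VIP (1552 to 2021 against 2262 to 4869 CPM) and 6 with VIP (1075 to 2758 against 2816 to 4817 CPM). All 4 tested markers of regenerative epithelium were higher in both comparisons (131 to 183 against 282 to 333 CPM without VIP, 109.9 to 155 against 256 to 381 CPM with VIP).

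Of 8 goblet cell markers 5 were higher without VIP and 3 with VIP. Of 9 stem cell markers 2 were lower in each, and 4 had positive log2 fold changes without VIP and 3 with VIP. Stem cell markers summed to 3426 to 4512 CPM in sham and 2529 to 2920 CPM in irradiated cells without VIP. With VIP the sums were 5297 to 5815 and 3117 to 3749 CPM, and Olfm4 held the most UMIs of the list. Of 9 enterocyte markers 3 were called higher without VIP and 2 with VIP, and all 9 had positive log2 fold changes in both. The part of these lists in the changes of Cldn4, F11r and Cldn15 was not tested. In the VIP comparisons of the same experiment, Cldn2 rose. No Paneth cell marker was called, although all 7 had negative log2 fold changes in both. Of 9 stem cell markers 1 was called higher in each, and 8 in sham and 9 in irradiated cells had positive log2 fold changes. The stem cell sums given above were higher with VIP, without overlap, in sham and in irradiated cells. Of 9 enterocyte markers 2 were called lower with VIP in sham and 1 in irradiated cells, with 8 negative in each, and 1 of 8 goblet cell markers was called lower in irradiated cells. The part of these lists in the change of Cldn2 was not tested.

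Further genes of the junction were counted from a list of 67, which held the other claudins, tricellular and MARVEL proteins, adhesion molecules, plaque scaffolds and polarity proteins. In whole organoids 3 of 39 tested were called with VIP (7.69%, against 4.82% of all genes), all higher. Ildr1, the tricellular junction protein angulin-2, rose from 3.72, 2.97 and 7.13 CPM to 16.9, 16.8, 19.6 and 11.6 CPM, with no overlap (log2 2.01 ± 0.23 SE, adjusted p = 1.2e-04). Ezr (ezrin, which links membrane to actin) rose from 209, 231 and 211 CPM to 321, 349, 295 and 306 CPM (log2 0.57 ± 0.087 SE, adjusted p = 0.0016).

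Pard6b, a polarity complex protein, rose less (log2 0.47 ± 0.12 SE, adjusted p = 0.040), and that call was lost under 6 of 14 alternatives. All 3 calls were lost when the first library of VIP-treated mouse 3 was left out, and all 3 held without the second, at log2 2.18, 0.62 and 0.55 (adjusted p of 2.7e-05, 1.5e-04 and 0.0084). In sorted cells 0 of 22 tested genes of the list were called with VIP at 72 h, and 0 of 33 in sham and in irradiated cells at 48 h. Among the genes with the smallest p there were Cgn (log2 -0.53, adjusted p = 0.88) at 72 h, Ezr (0.24, adjusted p = 0.33) and Marveld2 (-0.62, adjusted p = 0.38) in sham cells, and Pard3 (-0.49, adjusted p = 0.81) and Esam (-0.67, adjusted p = 0.86) in irradiated cells.

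After irradiation without VIP 2 of 33 were called (6.06%, against 4.46% of all genes), both higher. Ezr rose by log2 0.42 ± 0.10 SE (adjusted p = 0.013) and Pard3, a polarity scaffold, by log2 0.85 ± 0.23 SE (adjusted p = 0.034). With VIP present 1 of 33 was called (3.03%, against 7.78%), Cgnl1 (paracingulin), at 0.69 ± 0.20 SE (adjusted p = 0.027). Of these, Pard3 lost its call without any 1 of the 4 mice, Ezr without mouse 2 or 4, and Cgnl1 without mouse 2, 3 or 4. With DESeq2 the calls of Pard3 (adjusted p = 0.16) and Cgnl1 (adjusted p = 0.12) were also lost. That of Pard3 was lost in the fit of the 8 cultures of the comparison alone as well (adjusted p = 0.064).

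For the interaction of VIP with irradiation 0 of 33 passed, Marveld2 (0.88, adjusted p = 0.74) and Magi1 (-0.92, adjusted p = 0.75) having the smallest p. For sorted cells against whole organoids 0 of 34 passed, with Cgn (-0.82, adjusted p = 0.52) and Ezr (-0.47, adjusted p = 0.68) first.

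Genes with the most similar pattern were sought by Pearson's r of log2 CPM centred by mouse over 30 cultures, whole organoid mouse 4 left out, among 6729 genes tested in every experiment. The cultures share mice, and depth, cell composition and the VIP and irradiation differences described above enter each r, so these are descriptions. Cldn4 was most like 2200002D01Rik (r = 0.895), Cd63 (0.888) and Krt18 (0.885), and F11r was most like Ubqln1 (0.897), Krt18 (0.866) and Myl12a (0.866). Between the members themselves, Cldn4 and F11r had an r of 0.844, which ranked F11r the 10th nearest gene to Cldn4.

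Cldn2 was most like Stk39 (0.824), 2210407C18Rik (0.822) and Sgsm3 (0.821), and Cldn15 most like Stard4 (0.85), Car9 (0.811) and Selenbp1 (0.811). Cldn7 was most like Spint2 (0.901), Cox8a (0.848) and Olfm4 (0.83), and Cldn3 most like Nsdhl (0.796), Jund (0.743) and Syngr2 (0.743). The pair Cldn2 and Cldn15 had an r of 0.283, Cldn3 and Cldn4 of -0.431 and Cldn4 and Cldn15 of -0.541. Tjp1 was most like Nhsl1 (0.871), Txnrd1 (0.849) and Ctnnb1 (0.846), and Ocln most like Cd164 (0.744), Gla (0.665) and 1810013L24Rik (0.65).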

How the data were processed

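Poly(A) RNA was sequenced as 3′-end libraries with UMIs. According to the study's methods the authors ran the Drop-seq pipeline (version 1.0) with GRCm38 and GENCODE M25, and deposited raw UMI counts per gene, with each of the 3 tables normalised separately here. Library totals were 2249102 to 3883899 UMIs in whole organoids, where technical replicates were summed per culture. Genes were kept with filterByExpr and fitted with edgeR 4.0.16 in R 4.3.3 (TMM, quasi-likelihood test, group plus mouse, Benjamini-Hochberg over all genes tested, 0.05). All groups of a table entered 1 fit. Pairing came from the mouse labels. Deviations of samples of the same mouse correlated by 0.283 to 0.656 in whole organoids, 0.0292 to 0.212 in the 72 h sort and -0.0707 to 0.158 in the irradiation experiment. Between different mice the ranges were -0.573 to 0.356, -0.144 to 0.15 and -0.204 to 0.205. They overlap the same-mouse ranges, and in the irradiation experiment the same-mouse range lies wholly within. Log2 CPM used a prior count of 2. Alternatives were DESeq2 1.42.0, other scalings and filters, no block, and leaving out mice or libraries. Leaving out the first library of VIP-treated mouse 3 was added after seeing the data. The fits were also run on simulated counts. The changes planted there were in abundant genes and larger than most member changes here, so that run does not bear on small changes or low counts. The members and gene lists were chosen with earlier results of these data known. All members were described in every sample. Of the wider list, genes past the threshold were named (at most 8 by smallest p, otherwise the 2 with the smallest p), as were the 3 genes most like each member. For 1 gene that this rule named, no result is reported here. No replicates beyond 1 culture per mouse and condition were used, and cultures of a group come from different mice.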

Additional observations from a re-analysis of the deposited data

Results flagged for a closer look

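Among the 63 sets of 4 cultures examined (member by group), 3 held a culture whose gap to its nearest neighbour exceeded Dixon's critical value as a share of the range, and chance alone gives about 1 in 20. Ocln in VIP-treated whole organoids was highest in mouse 3, at 134 CPM, with the next culture at 116 CPM and the lowest at 112 CPM, and 838 UMIs behind the value. The high Ocln value of this culture came from its first library, at 149.8 CPM of library UMIs. The second, which went against its label, held 104.6. Cldn4 in sham cells with VIP was highest in mouse 3, at 124 CPM against 93.0 to 95.9 CPM in the others. Without mouse 3 the log2 fold change of Cldn4 with VIP in sham cells was -0.0069 in place of 0.092. Cldn7 in irradiated cells without VIP was highest in mouse 1, at 994 CPM against 950.2 to 956 CPM. No reason for these values was tested.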

How the results depend on the processing

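Counts of members past the threshold were recomputed under every alternative. The share of all genes called under each alternative is not given here, so these counts cannot be read as particular to the members. In whole organoids with VIP 3 members passed; 5 did when all genes with any count were tested and when the second library of VIP-treated mouse 3 was left out, 0 when the first was left out, and 1 in the fit without the mouse block. Leaving out 1 mouse at a time gave 2 to 5 there, 0 to 1 for VIP in irradiated cells, 1 to 3 for irradiation without VIP and 2 to 6 for irradiation with VIP. Fitting only the 8 cultures of the comparison gave 2 members for VIP in sham cells in place of 1. The unblocked fit ended no other call on a member. Across the members and further genes named, 982 values kept direction and side of the threshold, 38 lost and 13 gained a call, and 29 turned direction, each of them from a value that did not pass. The cause of these changes was not tested.

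The turned log2 fold changes were those of Ocln in whole organoids (-0.014) and of Cldn2 (0.16) and Cldn7 (0.041) in the comparison of sorted cells with whole organoids without the first library of VIP-treated mouse 3. With library size alone as scaling they were those of Cldn15 in the 72 h sort (0.023), of Cldn3 (0.0020) and Tjp1 (0.020) with VIP in irradiated cells and of Cldn7 in sorted cells against whole organoids (0.0041), and with DESeq2 that of Tjp1 in the last comparison (0.015). With 1 mouse left out, the ranges that crossed 0 were -0.088 to 0.14 (Cldn15) and -0.091 to 0.23 (F11r) in the 72 h sort, -0.0069 to 0.17 (Cldn4) and -0.35 to 0.031 (Tjp1) with VIP in sham cells, -0.058 to 0.024 (Cldn3), -0.20 to 0.021 (Cldn23) and -0.22 to 0.15 (Tjp1) with VIP in irradiated cells, -0.10 to 0.26 (Ocln) for irradiation without VIP and -0.17 to 0.19 (Cldn23) with it, -0.11 to 0.13 (Cldn15), -0.15 to 0.15 (Ocln) and -0.14 to 0.33 (Tjp1) for the interaction of VIP with irradiation, and -0.084 to 0.0067 (Cldn7) and -0.19 to 0.33 (Tjp1) for sorted cells against whole organoids.

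Depth limits the less abundant members in sorted cells: with 2 to 7 UMIs per culture Cldn23 could not be tested at 72 h. The whole-organoid results rest on 3 fully paired mice, 1 of them with a library that went against its label.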
